A study of Mus musculus with 2 samples.

Results

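The cytosolic ribosome translates messenger RNA outside the mitochondria, and its protein part is made of a large and a small subunit whose proteins are named Rpl and Rps. The genes described here were those annotated as protein coding whose symbol begins with Rpl followed by a digit or p, or with Rps followed by a digit or a, with pseudogene names and the Rps6k kinases left out and Rpl3l set beside Rpl3. The rule was met by 86 genes, of which 85 are described, among 15031 annotated mouse genes with reads in either library. They comprised 45 proteins of the large subunit, 31 of the small subunit, 8 paralogs and Rps19bp1, which meets the rule by its name but encodes a protein that binds Rps19 and is not a ribosomal subunit. The 45 and 31 are called core members here.

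The tissue was heart of female B6CASTF1/J mice, a hybrid strain from The Jackson Laboratory, at 18 to 20 months of age, sequenced as long reads from 2 libraries of 2 µg RNA each, which form 1 group. The labels list separate biological samples but the same donor entry for both, and whether these were separate animals is not stated. No conditions were contrasted. The comparisons addressed how much of each ribosomal protein mRNA the old heart held, in which transcript forms, and how closely the libraries matched. Replicate 1 had 630211 mouse reads and replicate 2 had 664319, and 1 read equalled 1.61 and 1.48 CPM (reads per 1000000 mouse reads after TMM scaling). A long read stands for 1 transcript, so CPM was not divided by length. Whether transcript length affected which molecules were read was not tested. Values after ± are SDs over 2 libraries (n = 2), which may be technical, and bracketed ranges are exact Clopper-Pearson 95% intervals, which cover counting error only. All 9 heart muscle markers had reads, summing to 39571 ± 1587 CPM, whereas of 8 skeletal muscle markers 4 had none, 3 had at most 1 read in each library, and Ckm, which heart muscle also makes, had 3866 and 3930 reads.

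Ribosomal protein mRNAs are known for a terminal oligopyrimidine (TOP) tract, a C at the first base followed by a run of C and T, through which the mTOR pathway adjusts their translation. Each subunit takes 1 copy of most of its proteins. Striated muscle is known for a paralog of Rpl3, Rpl3l. Mammalian genomes also hold many intronless copies of ribosomal protein mRNAs, most of them classed as processed pseudogenes.

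Few core genes had a TOP tract at their annotated start, and most had a pyrimidine run near it. At the annotated start of the leading known coding transcript, a C followed by at least 4 bases that are each C or T was present in 7 of 75 core genes (9.33%) and in 2.42% of 6648 tested genes that are no member. Taking any coding transcript of the gene, the shares were 28.0% and 6.09%. Wider windows were then searched. RefSeq start windows (GRCm38.p6) of 50 bases on each side of the start were at hand for 66 of the 85 members, 57 of them core. The run searched for was a C followed by at least 7 bases that are each C or T, read on the gene's strand only. A gene counted if any of its windows held the motif, so the shares are of genes. The run was present in 48 of 57 core genes (84.2%). With windows of the same length, it was present in 31.9% of 26959 genes that are no member. The share was 31 of 34 for the large subunit, 17 of 23 for the small subunit and 5 of 8 for the paralogs. For mitochondrial ribosomal proteins, which serve a separate ribosome, it was 31.9%. The letters CTTTCC, which overlap such runs, were present in 31.6% of core genes and 5.37% of genes that are no member. The run and the window were chosen after 12 searches had been seen, of 4 overlapping motifs in 3 windows, and gave the highest core share among them. With 30 bases on each side the run was in 54.4% of core genes and 20.5% of the others. From 10 bases before to 20 after the start it was in 40.4% and 10.03%. CTTTCC was in 19.3% and 15.8% of core genes in these narrower windows. The longer word CTCTTTCC was in 12.3%, 5.26% and 5.26% of core genes from the widest to the narrowest window. A C, at least 5 of C or T and then a G was in 80.7%, 57.9% and 43.9% of core genes, against 40.2%, 26.5% and 13.1% of the others. The core share was the larger one in all 14 searches, those at annotated starts included, but its size depended on the motif and the window. Some runs of core genes and paralogs, picked after their sequences were seen, are printed as examples, 5′ to 3′ on the gene's strand. In capitals is the longest stretch of a C followed by C or T in the gene's windows, also where it is too short for the search. Rpl36a and Rps27 stand before their paralogs, while for Rpl3, the parent of Rpl3l, no window was at hand.
Rpl34: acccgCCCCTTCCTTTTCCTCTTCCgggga
Rpl27a: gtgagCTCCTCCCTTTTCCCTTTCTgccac
Rpl35: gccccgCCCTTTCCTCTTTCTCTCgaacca
Rps24: agcggtCCTCTTTTCCTCCTCTCCagctcc
Rps19: cgtcgttCCCTTTCCCCTggctggcagcgc
Rplp0: gaccgcctggttCTCCTataaaaggcacac
Rpl36a: ggctctagCCTCTCTCTTTCCgagctgcta
Rpl36al: ctctgttcgtCCCTTTCCTgttcggcgcgt
Rps27: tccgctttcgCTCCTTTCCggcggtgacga
Rps27rt: ggcggtgacgaCCTCCCTacgagaacatgc
Rpl3l: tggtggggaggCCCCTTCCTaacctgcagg
In order, they lie at chr3:130730330-130730359, chr7:109519186-109519215, chr2:39005115-39005144, chr14:24490711-24490740, chr7:24884626-24884655, chr5:115559468-115559497, chrX:134585673-134585702, chr12:69184019-69184048, chr3:90213631-90213660, chr9:114982704-114982733 and chr17:24727846-24727875. The run was 20 bases long in Rpl34 and Rpl27a, 13 in Rpl36a against 9 in its paralog Rpl36al, and 9 in Rpl3l. Rplp0, an abundant core gene, held no run longer than 5, and Rps27rt none longer than 7, so these 2 genes did not match. Core genes with a run had a median level of 266 CPM (n = 48) and those without one 325 CPM (n = 9). Counted from the RefSeq start, the printed runs began in order at -17, -4, -7, -36, -43, 14, 28, 30, -2, 18 and 32. Negative positions lie before the start. The runs of Rps24 and Rps19 thus lay wholly before it, and a run in the window is not by itself a TOP tract. A match is a description of these letters, and where the reads begin was not analysed here.

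Together the 85 genes took 15883 reads in replicate 1 and 17090 in replicate 2, or 2.52% and 2.57% of mouse reads. Their summed level was 25463 ± 135 CPM, at 25559 and 25367 CPM. The large subunit genes summed to 14635 ± 46.9 CPM, the small subunit genes to 9927 ± 31.8 CPM and the paralogs to 879 ± 116 CPM. Reads of the large subunit outnumbered those of the small subunit by 1.48 and 1.47 to 1, for 45 and 31 genes. All 76 core genes had reads in both libraries, and 54 had at least 100 in each. Their median was 270.6 CPM, against 26.5 CPM for all 7545 genes with at least 10 reads, and 61 of the 76 ranked among the 1000 most abundant genes. The 78 mitochondrial ribosomal protein genes had a median of 102 CPM and summed to 12851 ± 441 CPM.

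Among large subunit genes, Rpl41, which encodes the smallest ribosomal protein (coding sequence 75 bases, chromosome 10, 128548114 to 128549305, mm10), was the most abundant, with 1088 and 1163 reads, or 1739 ± 17.3 CPM. Rpl5, which carries the 5S RNA into the ribosome together with Rpl11 (chromosome 5, 107900502 to 107909005), had 663 and 828 reads (1148 ± 115 CPM). Of these, 636 and 780 were of Rpl5-204, a 3-exon transcript that the annotation classes as retained intron and not as coding, and 18 and 22 were of the 8-exon coding transcript Rpl5-201. With reads of known noncoding transcripts set aside, a step chosen after the data were seen, Rpl5 stood at 44.5 ± 8.38 CPM, the ninth lowest core level. Rpl35, a protein at the tunnel exit, had 683 and 675 reads (1050.5 ± 68.7 CPM). By all reads Rpl5 and Rpl35 changed places between the libraries, while Rpl41 led in both. Rpl24, which lies at the contact between the subunits, had 378 and 355 reads (568 ± 57.5 CPM).

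The stalk proteins, which recruit elongation factors and of which P1 and P2 sit on P0 in more than 1 copy, were among the abundant members. Rplp0, the base of the stalk, had 433 and 456 reads (687 ± 14.1 CPM), Rplp2 had 352 and 392 (574 ± 10.9 CPM) and Rplp1 had 260 and 272 (411 ± 10.4 CPM). The order P0, P2, P1 was the same in both libraries.

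Of the small subunit, Rps29, a short zinc-binding protein of the subunit head, came first with 585 and 691 reads (984 ± 59.6 CPM). Rps14, which helps form the platform, had 448 and 483 (719 ± 2.81 CPM), Rps27 had 372 and 431 (619 ± 29.1 CPM) and Rps28 had 351 and 437 (607 ± 59.3 CPM). Rps27a, translated as a fusion of ubiquitin with the ribosomal protein, had 182 and 193 reads (290 ± 4.52 CPM). Rps6, the target of S6 kinase, had 151 and 176 reads (252 ± 12.9 CPM).

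The lowest core gene was Rpl17, with 7 and 5 reads (9.34 ± 2.72 CPM), 186-fold below Rpl41. Next came Rpl10, which joins the large subunit late in its assembly, with 9 and 12 reads, Rpl12, a protein at the base of the stalk, with 12 and 21, Rpl21 with 20 and 13, and Rpl30 with 17 and 20. Rps12 with 18 and 23, Rpl7a with 24 and 20, and Rpl35a with 36 and 25 also lay under 50 CPM. Rps20 (52 and 44 reads) and Rpl29 (62 and 58 reads) completed the 10 lowest. Most core genes lay far closer together, and 50 of the 76 were within 2-fold of the median. In the plot of levels by gene, 7 large subunit genes and Rps12 form a tail under the rest.

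**Figure D1:**
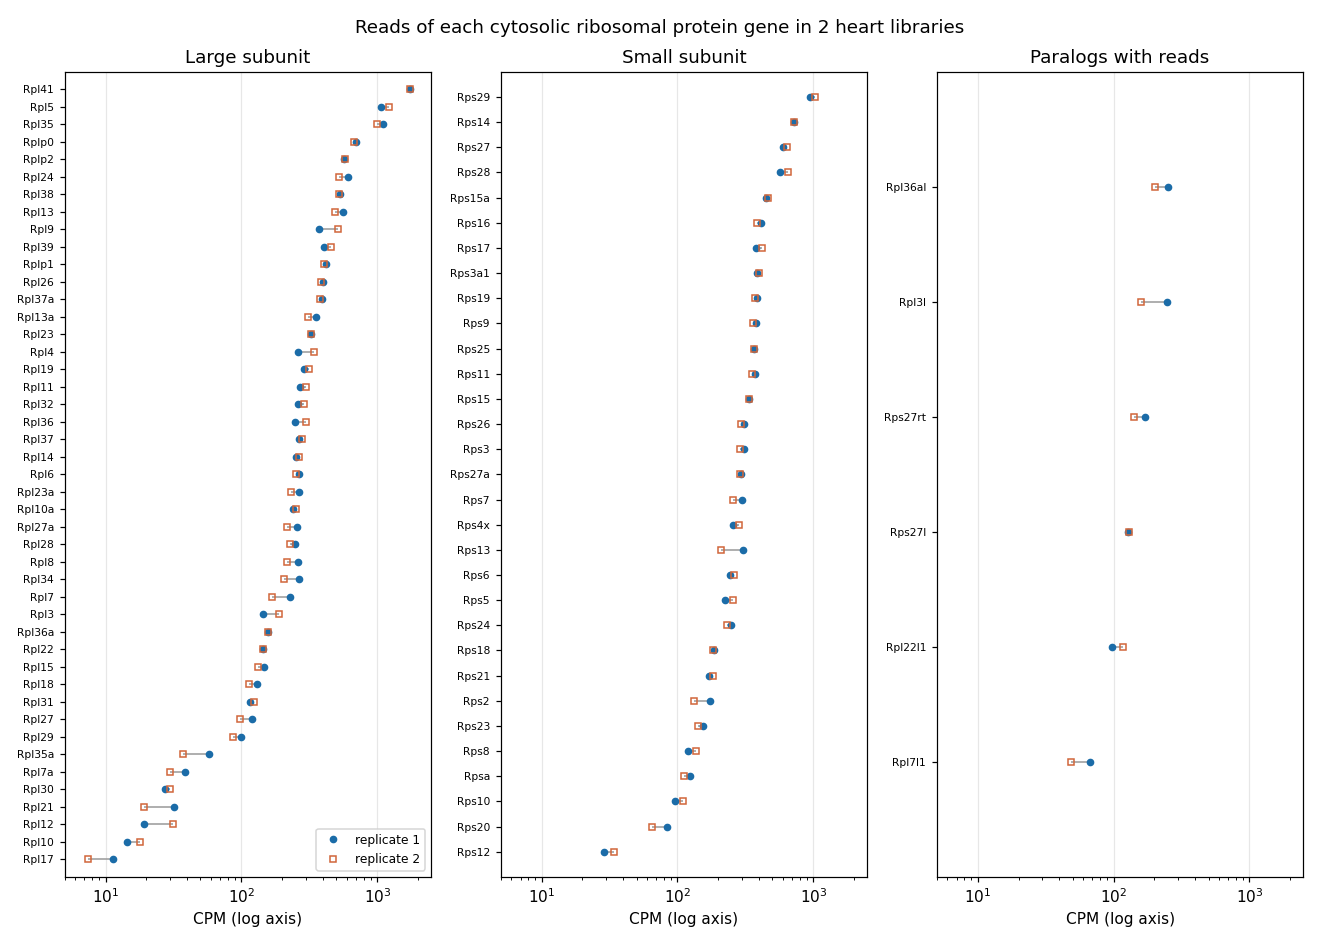
Level of each core gene and of each paralog with reads, in CPM on a log axis, with 1 point for each of the 2 libraries and a line joining them. Rpl41 leads the large subunit at 1739 CPM and Rps29 the small subunit at 984 CPM, and Rpl17 is lowest at 9.34 CPM.

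Many reads stood on pseudogene copies of these genes, and in several of the lowest core genes the copies held more reads than the gene. Copies were annotated pseudogenes, or coding genes with a pseudogene name, whose transcript matched at least 80% of a member's coding sequence at 90% identity or more. There were 970 such copies of 77 members, 170 of them with reads and 107 with reads in both libraries. They held 4269 and 4477 reads, which was 21.2% and 20.8% of the reads of members and copies together. In 14 core genes the copies held more reads than the gene, and in 26 they held over 25% of the reads of both. Gm14303, a processed pseudogene whose sequence equals the Rps29 coding sequence (identity 100%), had 549 and 569 reads. Gm15500, equal to Rpl5 over its coding sequence, had 484 and 606. Rps19-ps6 had 254 and 247 at 98.9% identity, Rpl37rt 229 and 235, and Gm10243, a copy of Rpl35a, 209 and 218. How many reads of a gene and a near-identical copy were set on the wrong one cannot be read from the counts, so the levels of these genes are uncertain.

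Rpl21 was the extreme case, with 20 and 13 reads of its own and 283 and 276 on 6 copies. Gm13370 alone held 158 and 156 of them at 99.6% identity, and Rpl21-ps15 held 92 and 94. Rpl35a, one of the genes mutated in Diamond-Blackfan anemia, had 36 and 25 reads beside 322 and 320 on 8 copies. Rpl17 had 7 and 5 beside 61 and 62, and Rpl10 had 9 and 12 beside 97 and 97, of which Rpl10-ps3, annotated as coding and equal to Rpl10, gave 95 and 96. Rpl30 had 54 and 67 reads on copies and Rps2 had 163 and 180 on 11 copies, against 107 and 89 of its own. In each of these the copies stood at similar numbers in both libraries.

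With the reads of copies added, an alternative chosen after the data were seen, the core genes drew closer together. The lowest was then Rpl12 at 53.1 CPM and the highest Rpl5 at 1989 CPM, reads of its noncoding transcript included, a span of 37.4-fold instead of 186-fold. No core gene remained under 50 CPM, where 8 had been, and 4 instead of 10 lay under 100 CPM. The SD of log2 level over the 76 genes fell from 1.40 to 1.01, and the ratio of the upper to the lower quartile from 2.59 to 1.97. The median rose from 270.6 to 338 CPM. Added reads can only raise a level, so the counts under a fixed level could not rise and the median could not fall. Whether the reads on copies came from the parent genes was not tested. Across the 76 core genes, which share both libraries, log2 level and the number of annotated copies had a Pearson r of -0.55 and a Spearman rho of -0.40, given as a description.

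**Figure D2:**
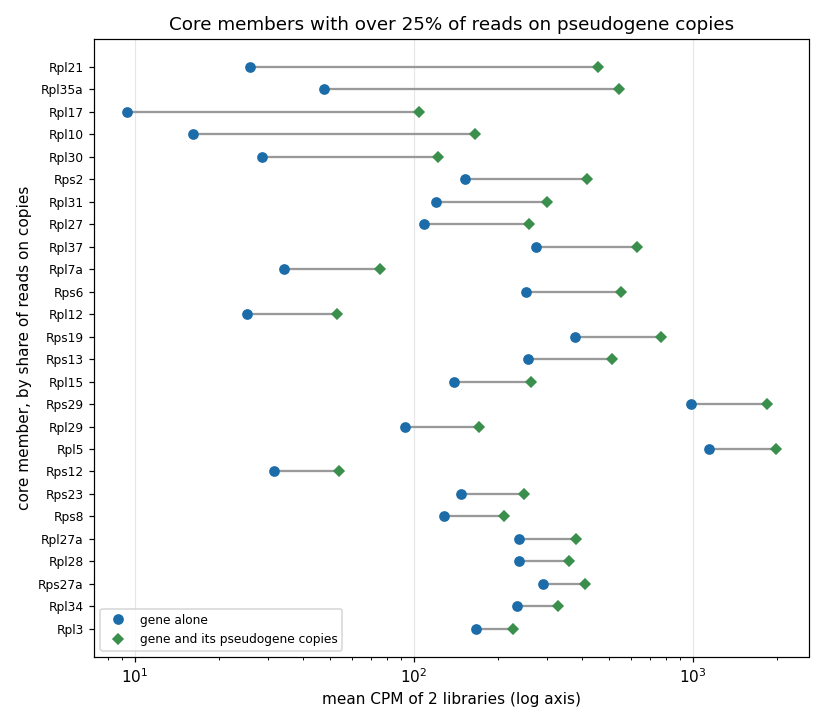
Mean CPM (log axis) of the 26 core genes with over 25% of reads on pseudogene copies, for the gene alone (circles) and for gene and copies together (diamonds), ordered by the share on copies. Rpl21 moves from 25.7 to 458 CPM and Rpl35a from 47.5 to 544 CPM.

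The paralogs ranged from none to more than their parent genes. Rpl3l (chromosome 17, 24727820 to 24736143, plus strand) had 153 reads in replicate 1 and 107 in replicate 2, while Rpl3, whose protein reaches into the peptidyl transferase center, had 90 and 127. Rpl3l thus held 63.0% [56.6 to 69.0] of the reads of the pair in replicate 1 and 45.7% [39.2 to 52.3] in replicate 2, intervals that do not overlap. The mean share was 54.3% ± 12.2. Rpl3 has 21 copies, of which Rpl3-ps1 held 37 and 41 reads, and with these added to Rpl3 the shares were 54.6% and 38.9%. With reads of known transcripts only the mean share was 41.0%. The coding sequences of the pair are 73.0% identical, and no copy of Rpl3l was found.

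Rpl36al exceeded its parent Rpl36a, with 156 and 135 reads against 97 and 105, or 61.7% [55.4 to 67.7] and 56.2% [49.7 to 62.6] of the pair. The parent's 6 copies held 26 and 35 reads, and with them the shares were 56.1% and 49.1%. Rpl22l1, which can take the place of Rpl22, had 61 and 79 reads against 90 and 97, or 40.4% [32.5 to 48.7] and 44.9% [37.4 to 52.6]. Of the Rpl22 reads 73 and 72 were of a 4-exon transcript annotated as a processed transcript and not as coding, and none were of a known coding transcript. Rpl7l1 had 42 and 33 reads, 23.0% [17.1 to 29.7] and 22.4% [16.0 to 30.1] beside Rpl7. Rps27l, a p53-regulated relative of Rps27, held 17.5% [14.1 to 21.3] and 16.8% [13.7 to 20.3] with 79 and 87 reads. Rps27rt, a single-exon gene on chromosome 9 (114982366 to 114982739), had 106 and 96 reads, but its coding sequence equals that of Rps27, so that the division between them is uncertain. In these 5 pairs the intervals of the libraries overlapped.

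Rpl10l and Rpl39l, known for their expression in male germ cells, had no reads in either library. Beside 250 and 309 reads of Rpl39, the exact 95% interval for 0 reads of Rpl39l reached 1.46% and 1.19% of the pair. For Rpl10l it reached 33.6% and 26.5%, since Rpl10 itself had 9 and 12 reads.

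**Figure D3:**
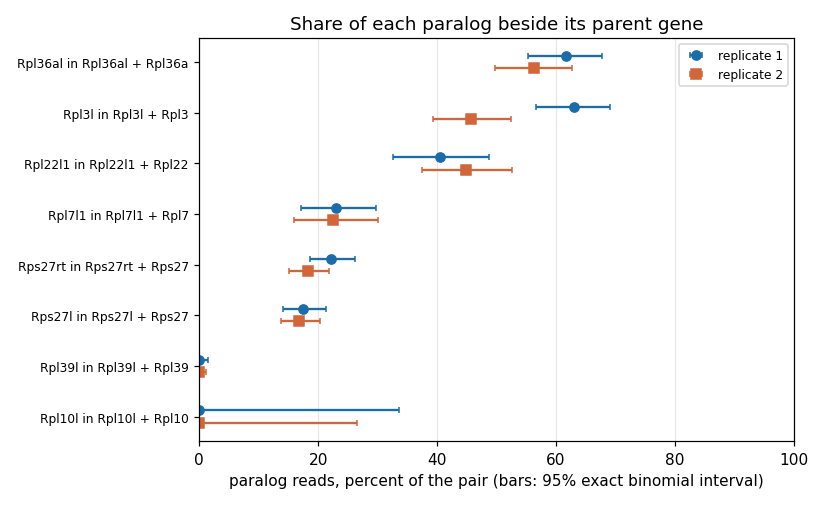
Reads of each paralog as a percentage of the reads of paralog and parent, for each library, with exact 95% binomial intervals as bars. Rpl3l, at 63.0% and 45.7%, is the pair whose intervals do not overlap between the libraries.

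Most members were close between the libraries. Each gene's reads were set against the scaled library sizes by an exact two-sided binomial test with Benjamini-Hochberg adjustment over all 7545 genes, which compares 2 libraries and not conditions. It called 3 of 83 tested members at an adjusted p of at most 0.05, where 2.07% of all tested genes were called. Most members had more reads than most tested genes, and depth bears on what the test can call. Among genes with at least 50 reads it called 3 of 75 members and 5.56% of all genes. Higher in replicate 1 were 2 members (all genes 0.861%) and higher in replicate 2 was 1 (all genes 1.21%). The 83 members had a median log2 ratio (replicate 1 over replicate 2) of 0.04, and all tested genes one of -0.00053. Of the 76 core genes 73 differed by 1.5-fold or less, a share not given here for all tested genes. Across the core genes log2 CPM in the libraries had a Pearson r of 0.985 and a Spearman rho of 0.971, given as a description.

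Rpl9, a large subunit protein (chromosome 5, 65388364 to 65391444), had 230 reads in replicate 1 and 348 in replicate 2, or 370.1 and 517 CPM. It was higher in replicate 2 by 1.40-fold [1.18 to 1.66], with an adjusted p of 0.00637 in the binomial test. Its copies held 30 and 35 reads. Rpl9 stayed called under each of the 7 alternatives tried.

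Rps13, a small subunit protein (chromosome 7, 116331505 to 116334195), had 189 and 140 reads, or 304 and 208 CPM. It was higher in replicate 1 by 1.46-fold [1.17 to 1.83], with an adjusted p of 0.0328. Its copies, chiefly the processed pseudogene Rps13-ps1 on chromosome 8 (149 and 118 reads, 99.6% identity), lay on the same side with 188 and 143 reads in all. Gene and copies together gave a log2 ratio of 0.53 and an adjusted p of 0.00026.

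Rpl3l, at 246 and 159 CPM, was higher in replicate 1 by 1.55-fold [1.20 to 2.00], with an adjusted p of 0.0283. Rpl3 was not called, at 145 and 189 CPM, with a log2 ratio of -0.38 and an adjusted p of 0.53. The calls of Rpl3l and Rps13 were lost with total counts as library sizes (adjusted p 0.057 and 0.072), with no minimum of reads (0.056 and 0.065) and with reads of known transcripts only (0.33 and 0.056). Without the genomic class Rpl4 was called as well, and with copies added Rpl5 was, most of whose own reads were of a noncoding transcript.

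Markers of cell types also differed between these libraries. The 5 erythroid markers summed to 30391 CPM in replicate 1 and 11784 in replicate 2, and all 5 were called. The 5 atrial markers went from 1806 to 4319 CPM (4 called), the 6 fat cell markers from 665 to 1897 CPM (4 called) and the 6 airway epithelium markers from 1.61 to 797 CPM (5 called), with Sftpc at 0 in both. Fibroblast and macrophage markers went from 2451 to 2853 and from 254 to 364 CPM, with 1 gene called in each list. Endothelial markers went from 751 to 1079 CPM, where Fabp4, which is also in the fat cell list, went from 574 to 919 CPM and the other 4 genes were not called. Of the 9 heart muscle markers 4 were called, with Pln, Myh6 and Myl2 higher in replicate 1 by 1.06-fold, 1.13-fold and 1.13-fold, and Nppa, which is also an atrial marker, higher in replicate 2 by 2.22-fold. Their part in the differences of Rpl9, Rps13 and Rpl3l was not tested. In bulk tissue fewer cells of a type and less RNA per cell cannot be told apart.

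**Figure D4:**
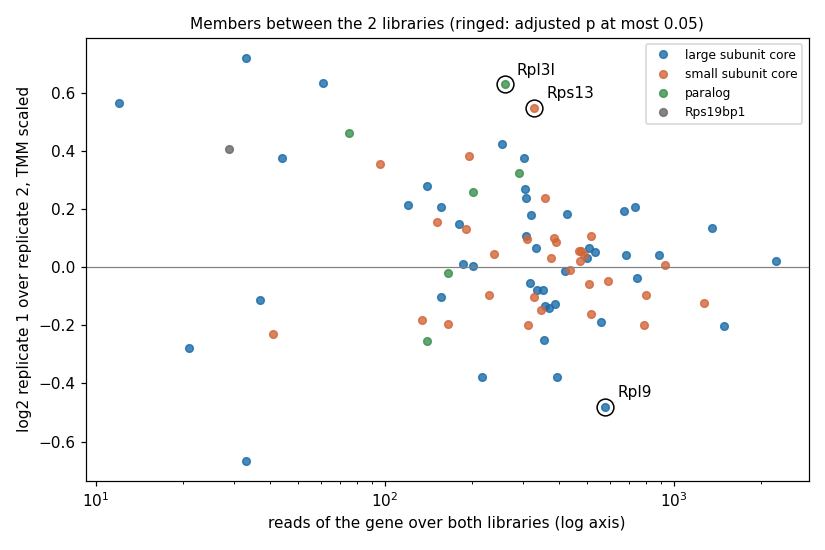
Log2 ratio of replicate 1 over replicate 2 for each of the 83 tested members, against its reads over both libraries on a log axis. Rpl3l and Rps13, ringed above the line, and Rpl9, ringed below it, are the called members, and the widest scatter is at few reads.

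Most reads of members followed annotated transcripts. Known transcripts held 91.1% [90.7 to 91.6] and 91.4% [91.0 to 91.8] of member reads, against 69.9% and 68.6% over all annotated genes. Reads classed as incomplete splice matches (ISM), the class for models that match part of a longer one, held 6.33% and 6.41%, against 15.6% and 18.1% over all genes. The genomic class, made of reads at a gene that keep to none of its splice junctions or run into introns, held 0.762% and 0.655%, against 9.37% and 8.30%. In mitochondrial ribosomal protein genes, known transcripts held 66.6% and 66.4%, and the genomic class 19.8% and 20.3%. Their ISM share was 5.95% and 5.28%, so a low ISM share was not particular to the members. Known transcripts that the annotation does not class as coding held 906 and 1113 member reads (5.70% and 6.51%), and over 50% of the reads in 2 members, Rpl5 and Rpl22. The leading known transcripts of core genes were short, with a median length of 795 bases against 2404 over 7102 tested genes with a known transcript. Of 76 members with at least 20 reads in each library, 50 had over 90% of reads in known transcripts.

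Within the genes, the share of the leading known transcript did not pass the test in any member. By Fisher's exact test with Benjamini-Hochberg adjustment, 0 of 81 tested members were called, where 1.42% of 4144 tested genes were. Before adjustment 4 of the 81 members had a p of at most 0.05 in this test. The matching share of all tested genes is not given here, so that count is not a result about the members. No other tool was run on these shares. Of members reaching 20 reads in both libraries, Rps24 had the lowest leading share, at 1.95% over both libraries, followed by Rpl31 (40.8%), Rpl7l1 (43.3%), Rpl39 (46.2%), Rps21 (48.0%), Rpl3l (51.0%), Rpsa (56.6%) and Rpl7 (59.2%). Below that depth, the leading transcript of Rpl21 had 3 of 19 and 5 of 13 reads, and that of Rpl30 held 54.1%.

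Rps24 encodes a small subunit protein with known splice variants at its C-terminal end, and is one of the genes mutated in Diamond-Blackfan anemia. Almost all reads of Rps24 were placed in models that the annotation lacks. Of its 154 and 156 reads, 1 and 6 were of known transcripts. Its leading form (class NNC, with a new splice site) had 6 exons and 107 and 100 reads. The difference lay in the next-to-last exon, which ran from 24494052 to 24494087 of chromosome 14 and joined the last exon at 24495775. The annotation has an exon of 18 bases with the same start, followed in one transcript by an exon of 20 bases at 24495430 to 24495449. The pieces are printed because they set the new form apart from the annotated one, and they come from an annotated transcript that spans the region.
Rps24 annotated exon of 18 bases: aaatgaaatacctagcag
Rps24 extension of 18 bases in the new form: gtactgccattgggcacg
Rps24 annotated exon of 20 bases, skipped in the new form: tgagtggagattggatacag
The new exon of 36 bases is the first piece followed by the second, and GT follows it in the genome, as it does the annotated exon, while AG precedes the last exon. The extension and the skipped exon differ by 9 edits, and how far unrelated pieces of these lengths differ was not computed. The annotated small exons sum to 38 bases, and an exon of 38 bases with the same start was in 1 and 1 reads. Counting every model of the gene that holds it, models classed as incomplete matches included, the exon of 36 bases was in 149 reads of replicate 1 (96.8% [92.6 to 98.9]) and 143 of replicate 2 (91.7% [86.2 to 95.5]). The exon of 18 bases joined directly to the last exon was in 2 and 1 reads, and no small exon in 1 and 7. The reads themselves were not analysed here, so whether the 36 bases were read as such or placed by alignment was not tested.

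Other new forms had few reads each. Forms with a new splice site held 1.59% and 1.26% of member reads, against 2.30% and 2.23% over all annotated genes. New combinations of known splice sites (class NIC) held 0.183% and 0.275%, against 2.74% and 2.76%. In all, 32 new forms of both kinds, of 24 members, were found in both libraries. They had 194 and 182 reads, of which the Rps24 form gave 107 and 100. Rplp2 had a pair of forms with 10 and 19 reads and with 18 and 8 reads. The first ended its last intron 3 bases further on, and the second began its first intron 19 bases earlier, than the nearest annotated intron. A form of Rpl7l1 had 5 and 8 reads and one of Rpl21 had 8 and 4.

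In several members the remaining reads were of the 3′ end alone. Rpl39, at the tunnel exit, had 116 and 142 reads of its 3-exon transcript Rpl39-201 beside 133 and 164 of its last exon alone (230 bases). Rps3a1 had 65 and 78 such reads beside 169 and 186 of Rps3a1-201. Rps21 had 56 and 54 reads of Rps21-201 beside 34 and 52 of a model of its last 2 exons. Rpl7 had 88 and 63 of Rpl7-201 beside 32 and 38 of a model of its last 3 exons. Rpl3l differed, with 78 and 54 reads of the 10-exon Rpl3l-202 beside 37 and 24 of incomplete matches that still had 9 exons. Rpl31, in contrast, spread over known transcripts, with 28 and 30 reads of Rpl31-201, 18 and 16 of Rpl31-203 and 12 and 18 of Rpl31-202. Rpl22l1 was led by an annotated transcript of 525 bases (44 and 49 reads) over Rpl22l1-201 of 552 bases (13 and 22).

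Of members reaching 20 reads in both libraries, Rps27a had the largest genomic class, where it held 20.3% of reads, all 37 and 39 of them in a model of 54 bases at the 3′ end of the gene (chromosome 11, 29545846 to 29545899). It held 10.7% in Rpl7l1, 8.97% in Rpl31, 5.85% in Rpl4, 5.75% in Rps4x, 4.81% in Rpl22, 3.97% in Rpl13a and 2.93% in Rps9. In a few genes single-exon reads at the 3′ end were classed differently in the 2 deposited files. For Rpl4 (163 and 230 reads) 23 reads of replicate 1 were genomic and 32 of replicate 2 were incomplete matches, both of single-exon models ending at 64178666 of chromosome 9. Rps9 had 19 single-exon incomplete matches in replicate 1 and 14 genomic reads in replicate 2, and Rpl41 had 14 of the first kind in replicate 1 and 14 of the second in replicate 2. With all classes Rpl4 was not called (1.30-fold [1.06 to 1.60] higher in replicate 2, binomial adjusted p 0.229), and with the genomic class left out it was, at 0.0044.

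**Figure D5:**
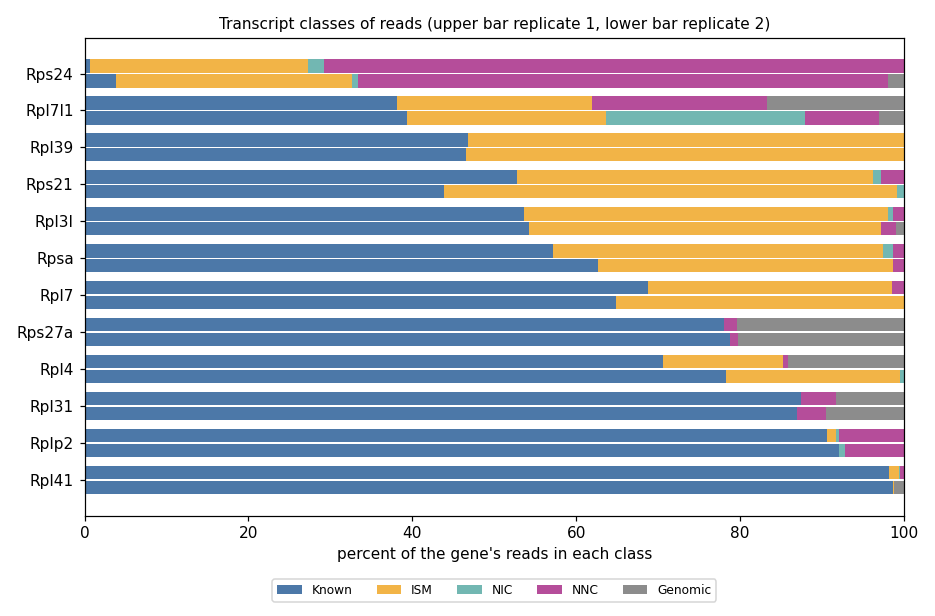
Reads of 12 members by class as a percentage of the gene's reads (upper bar replicate 1, lower bar replicate 2). Known transcripts hold 98.4% of Rpl41 reads and 2.26% of Rps24 reads, where forms with a new splice site (NNC) lead, and the genomic class stands out in Rps27a.

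Among ribosomal proteins outside the name rule, Fau, a ubiquitin-like fusion of Rps30, had 162 and 162 (251 ± 14.3 CPM) and Rack1, a scaffold on the small subunit, had 47 and 32 (61.6 ± 19.9 CPM). Of these 2 genes the binomial test called 0, while 1 had an unadjusted p of at most 0.05. Of 47 genes of ribosome assembly, 0 of 41 tested were called in the same binomial test, 3 had an unadjusted p of at most 0.05, and their median was 18.7 CPM. Over all 7545 tested genes 9.74% had an unadjusted p of at most 0.05. The most abundant were Nop10, a snoRNP protein, with 142 and 157 reads (231 ± 3.21 CPM), then Snu13 (61 and 61), Nap1l4 (51 and 54), Sbds (45 and 55) and Nop53 (39 and 60). Of 23 other genes with TOP mRNAs, 0 of 22 tested were called and 3 had an unadjusted p of at most 0.05, with a median of 78.3 CPM. The most abundant were Tpt1 (679 ± 34.4 CPM), Eef2, the translocation factor (292 ± 11.8 CPM), Fau, Naca (169 ± 36.2 CPM) and Eef1g (167 ± 22.7 CPM).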

How the data were processed

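Each library's deposited table gives raw read counts for every transcript model, per the file headers, and the authors made the models with TALON on mm10 with GENCODE M21, per the files deposited beside it. The aligner, program versions and filters used upstream were not given. Models at 0 reads have no row, and their genes were taken as 0. The members, gene lists and tests were chosen with earlier results of these data known. A gene that meets the rule, and another of the gene lists, are not reported here and are left out of the counts and sums of members and lists.

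Counts were summed per gene and scaled by TMM factors (0.986 and 1.01) from edgeR 4.0.16 in R 4.3.3 on genes with at least 10 reads over both libraries. Log2 ratios had 0.5 reads added to each library. Genes were tested by an exact binomial test (scipy 1.17.1), and leading transcript shares by Fisher's exact test, without the genomic class, where both libraries had at least 10 reads. The binomial test was run on simulated data that held counting error only, which cannot show how it does where libraries differ beyond that. Copies were found with blastn 2.17.0. An alternative used size factors from DESeq2 1.42.0. New forms were matched by their introns. Start motifs were searched in 14 ways, 12 of them in RefSeq windows, and the one described first among the windows was chosen after all had been seen.

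Genes were named by a rule. It took the 10 highest and 10 lowest core genes, every called member, every paralog and parent, Rps27a and Rps24, and among members reaching 20 reads in both libraries, the 8 with the lowest leading share and the 8 with the largest genomic share. Of the lists of other ribosomal proteins, ribosome assembly and other TOP mRNAs it took the 5 most abundant and every called gene, and of the pseudogenes the 5 with most reads. Fabp4, Pln, Myh6, Myl2, Nppa, Ckm, Sftpc, Rplp1, Rps6, Rps3a1, Rps2, Rps19, Rpl37 and the genes whose start sequences or copies are shown were named beyond it after their values were seen. With 1 group there were no other samples to compare.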

Additional observations from a re-analysis of the deposited data

How the results depend on the processing

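Members called between libraries fell from 3 to 1, Rpl9, with total counts as library sizes, with no minimum of reads and with reads of known transcripts only. These called 2.08%, 0.858% and 1.89% of all genes tested, against 2.07% as reported. The count was 3 with DESeq2 size factors (all genes 2.07%) and with at least 50 reads (3 of 75 members, all genes 5.56%), 4 with the genomic class left out (3.22%) and 4 with copies added (2.17%). The summed level of members moved from 25463 CPM to 35270.4 with known transcripts only and 27601 with the genomic class left out, where the base of scaled reads is smaller. It was 28103 CPM with pseudogenes named after a member added and 32220.5 with all copies added. The large to small subunit ratio went from 1.47 to 1.51 with known transcripts only and to 1.45 with named pseudogenes added. The share of Rpl3l was 41.0% with known transcripts only, instead of 54.3%. The share of member reads in known transcripts was 91.9% without the genomic class, instead of 91.3%. The cause of these shifts was otherwise not tested. With 1 library left out the summed level ranged from 25367 to 25559 CPM, the subunit ratio from 1.47 to 1.48, the Rpl3l share from 45.7% to 63.0% and the known share from 91.1% to 91.4%. No member passed the test of leading transcript shares under any of the 3 alternatives. No paired analysis was possible because there was 1 group. Depth limits the lowest genes: for Rpl17, with 7 and 5 reads, the interval of the ratio between libraries ran from 0.415 to 6.07.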

Other observations

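Several core genes have small nucleolar RNA genes, guides of ribosomal RNA modification, between their start and end. Whether these lie in introns was not checked. In the annotation 29 of the 76 core genes held 57 such genes on the same strand, among them Rpl5 and Rps13. Their median level was 256 CPM, against 278 CPM for the 47 core genes without one. The 76 core genes lie on 19 chromosomes, and 4 of them, Rpl10, Rpl36a, Rpl39 and Rps4x, on the X chromosome. Across the core genes log2 level and log2 length of the coding sequence, which runs from 75 to 1257 bases, had a Pearson r of -0.23 and a Spearman rho of -0.21, as a description.

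The copies of Rpl5 and Rps13 stood on the same side as their parent genes in both libraries. Rpl5 had 663 and 828 reads and its copies 485 and 607, and Rps13 had 189 and 140 and its copies 188 and 143. Of the Rpl5 reads, 639 and 794 were of known noncoding transcripts and only 18 and 22 of known coding ones. For Rpl5 the adjusted p of the binomial test went from 0.184 to 0.0203 when the reads of copies were added, over a range of 0.0203 to 0.35 among its alternatives. Whether reads of the gene and of its copies come from the same transcripts was not tested.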
